A study of Mus musculus with 6 samples.

Results

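The peroxisome carries out steps of lipid metabolism that mitochondria do not, and 40 mouse genes of its biogenesis and its lipid oxidation were followed here in liver RNA. They were picked out of the table by symbol, and no value in the table entered that rule, although the list was drawn up with earlier results of these data known. All 40 were among the 24346 genes of the deposited table, and all 40 passed the filter on low values, an average over the 6 livers of 0.5 FPKM or more (fragments per kilobase of transcript and M of mapped fragments), which 11493 genes passed. Of the 40 genes, 13 encode peroxins (Pex genes) and 27 encode peroxisomal enzymes and transporters.

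The 3 control and the 3 lipophagy livers came from male C57BL/6J mice that were 8 weeks old when CDAHFD was started, a diet rich in fat and without choline whose protein is replaced by L-amino acids, as a model of nonalcoholic steatohepatitis. The mice ate CDAHFD for 6 weeks, returned to normal chow and were analysed 2 weeks later. Both groups received an intravenous adeno-associated virus of serotype 8 that drives an adapter protein from the liver-specific TBG promoter. In lipophagy mice the adapter was LDTS-eLIR, a lipid droplet-targeting sequence (LDTS) of perilipin 1 joined to an engineered LC3-interacting region (eLIR) of optineurin that recruits autophagosomes. In control mice it was LDTS-LIR mut, in which that region cannot bind LC3. The control mice thus carried the virus, its mCherry tag and the LDTS too, and the study itself ascribes a lipogenic effect to the LDTS. No liver without the virus or without the diet was analysed here. The labels number the livers of each group without naming animals, so the p-values measure the spread between these samples.

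Peroxisomes shorten very long chain fatty acids, branched fatty acids and the side chains of bile acid precursors by beta-oxidation, remove the methyl branch of phytanic acid by alpha-oxidation, begin the synthesis of ether lipids and break down hydrogen peroxide. Their matrix proteins are made in the cytosol and brought in by the receptors Pex5 and Pex7, their membrane proteins are inserted with the help of Pex3, Pex16 and Pex19, and the organelle is elongated for division by proteins of the Pex11 family. In the liver of rodents many of the enzyme genes are induced through the nuclear receptor PPAR-alpha, which binds direct repeats of AGGTCA spaced by 1 base.

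Sequencing depth is not given in the table and was estimated roughly, from the size of the steps between low FPKM values, at between 23.1 M and 34.2 M fragments a liver. The summed FPKM of all genes was between 622696 and 681138 in control livers and between 709993 and 782392 in lipophagy livers, so the groups did not overlap in this total. All 13 hepatocyte markers found in the table were above 0 in the livers, and their summed level was 84798 to 94108 FPKM in control and 101949 to 130803 FPKM in lipophagy livers. The summed level of 10 stellate cell markers was 168 to 182 against 134 to 163 FPKM, that of 10 macrophage markers 496 to 646 against 484 to 610 FPKM, that of 6 bile duct markers 137 to 247 against 92.0 to 196 FPKM, and that of 8 endothelial markers 32.6 to 41.3 against 36.5 to 57.4 FPKM. For 8 lymphocyte markers it was 7.24 to 8.90 against 5.51 to 6.62 FPKM, for 4 neutrophil markers 18.8 to 32.0 against 16.1 to 18.7 FPKM and for 6 red cell markers 107 to 130 against 118 to 443 FPKM. The groups did not overlap in the hepatocyte, stellate cell, lymphocyte and neutrophil sums. The part of these shifts in the results on peroxisomal genes was not tested, and in whole-liver RNA fewer cells of a type and less RNA per cell cannot be told apart.

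Most peroxisomal genes had a somewhat higher mean in lipophagy livers on the deposited scale, in both classes, and no single gene passed the test. The mean log2(FPKM + 1) was higher in lipophagy livers for 36 of the 40 genes, where 54.5% of all tested genes were higher, but for only 20 of the 40 once each liver was scaled to the same FPKM total, the scale of TPM (transcripts per M of transcripts), on which 22.6% of all tested genes were higher. On the deposited scale 12 of the 13 Pex genes and 24 of the 27 enzyme and transporter genes were higher, and on the TPM scale 7 and 13 were. The median log2 difference between lipophagy and control livers was 0.151 for the Pex genes and 0.151 for the enzymes and transporters, against 0.020 for all tested genes. On the TPM scale these medians were 0.015, -0.004 and -0.120.

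In limma, a linear model with variances moderated across genes, 0 of the 40 had an adjusted p below 0.05, and their adjusted p lay between 0.143 and 0.950. Across all genes 3 of 11493 passed (0.0261%). At an unadjusted p below 0.05, 9 of the 40 (22.5%) were higher in lipophagy livers, beside 11.5% of all tested genes, and 0 of the 40 were lower, beside 7.97% of all tested genes. These 9 were the Pex genes Pex2, Pex7, Pex11g and Pex14 and the enzyme genes Ech1, Pecr, Ehhadh, Pipox and Hao1. The 3 lipophagy livers lay above the 3 control livers for 12 of the 40 (30.0%), beside 15.4% of all tested genes, and below them for none, beside 10.8%. The 12 were the same 9 and Abcd3, Scp2 and Phyh. With any 1 liver left out the count was 14 to 20, and 20 without lipophagy liver 3. Fewer livers overlap less often for any gene, and the share of all tested genes was not computed there. These counts therefore cannot be set against the 12 or the 15.4%. With the livers scaled to the same FPKM total, Ech1 alone of the 40 was higher at an unadjusted p below 0.05, beside 2.05% of all tested genes, and 0 of the 40 were lower, beside 21.8%. Ech1 was also the only one of the 40 whose lipophagy livers all lay above the controls on that scale, beside 2.74% of all tested genes, and the lipophagy livers lay below the controls for Acaa1a and Agps, 2 of the 40, beside 27.2%. After quantile normalization 23 of the 40 had a higher mean, beside 52.0% of all tested genes, and Ech1 and Pex2 were higher at an unadjusted p below 0.05, beside 6.48% of all tested genes, while 0 were lower, beside 7.82%.

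**Figure D1:**
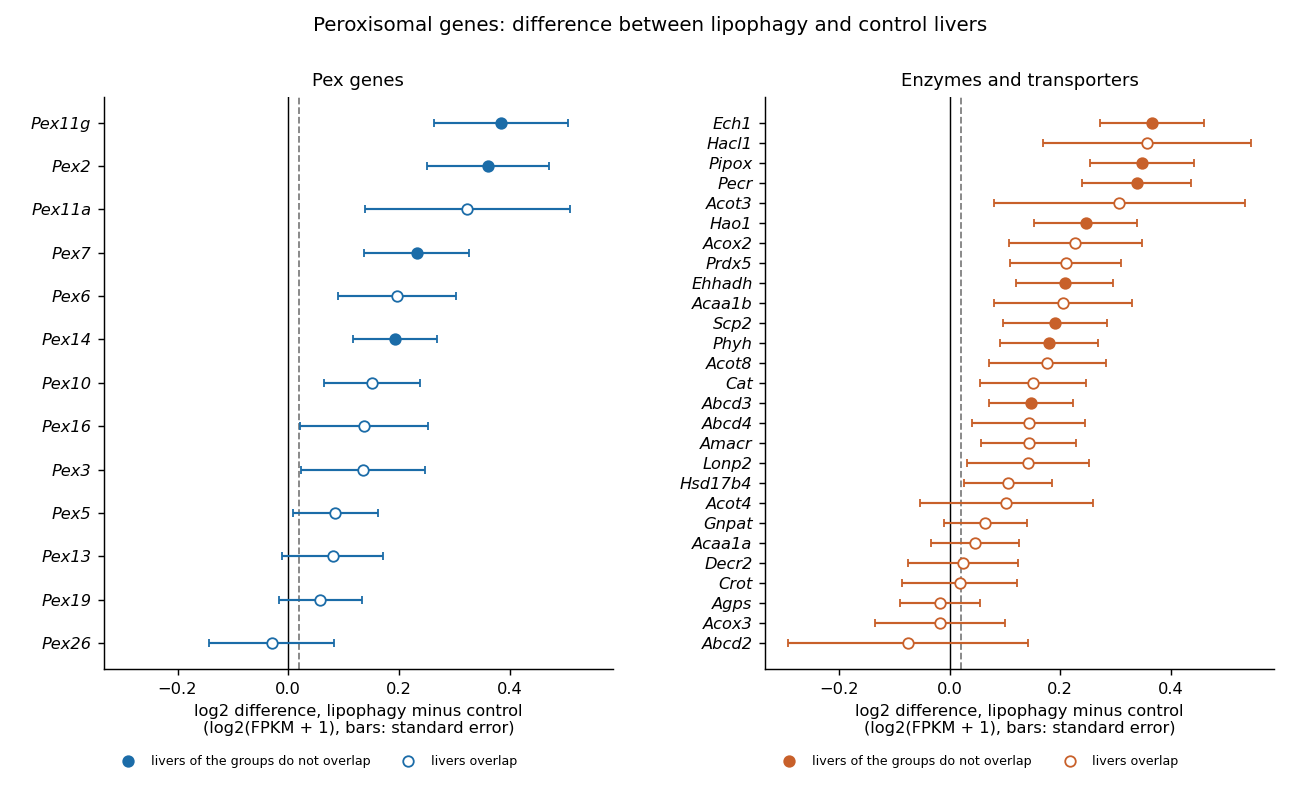
Difference between lipophagy and control livers for each of the 40 peroxisomal genes, as the mean log2(FPKM + 1) of 3 lipophagy livers minus that of 3 control livers with its standard error from limma, Pex genes and enzymes apart. Filled points are the 12 genes whose groups do not overlap, and the dashed line is the median of all tested genes (0.020). On this deposited scale 36 points lie above 0, and on the TPM scale 20 do.

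In the average of the 40 genes the lipophagy livers lay above the control livers on the deposited scale. The mean deviation of the 40 from each gene's own mean, on the log2 scale, was -0.094, -0.083 and -0.072 in control livers 1 to 3 and 0.127, 0.063 and 0.059 in lipophagy livers 1 to 3. The Pex genes were at -0.093, -0.074 and -0.099 in control livers and at 0.156, 0.038 and 0.072 in lipophagy livers, so that lipophagy liver 1 stood above the other two. Of the 40 genes, 20 had their highest value of all 6 livers in lipophagy liver 1, among them 9 of the 13 Pex genes. The enzyme and transporter genes were spread more evenly, at 0.113, 0.076 and 0.053 in the lipophagy livers.

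**Figure D2:**
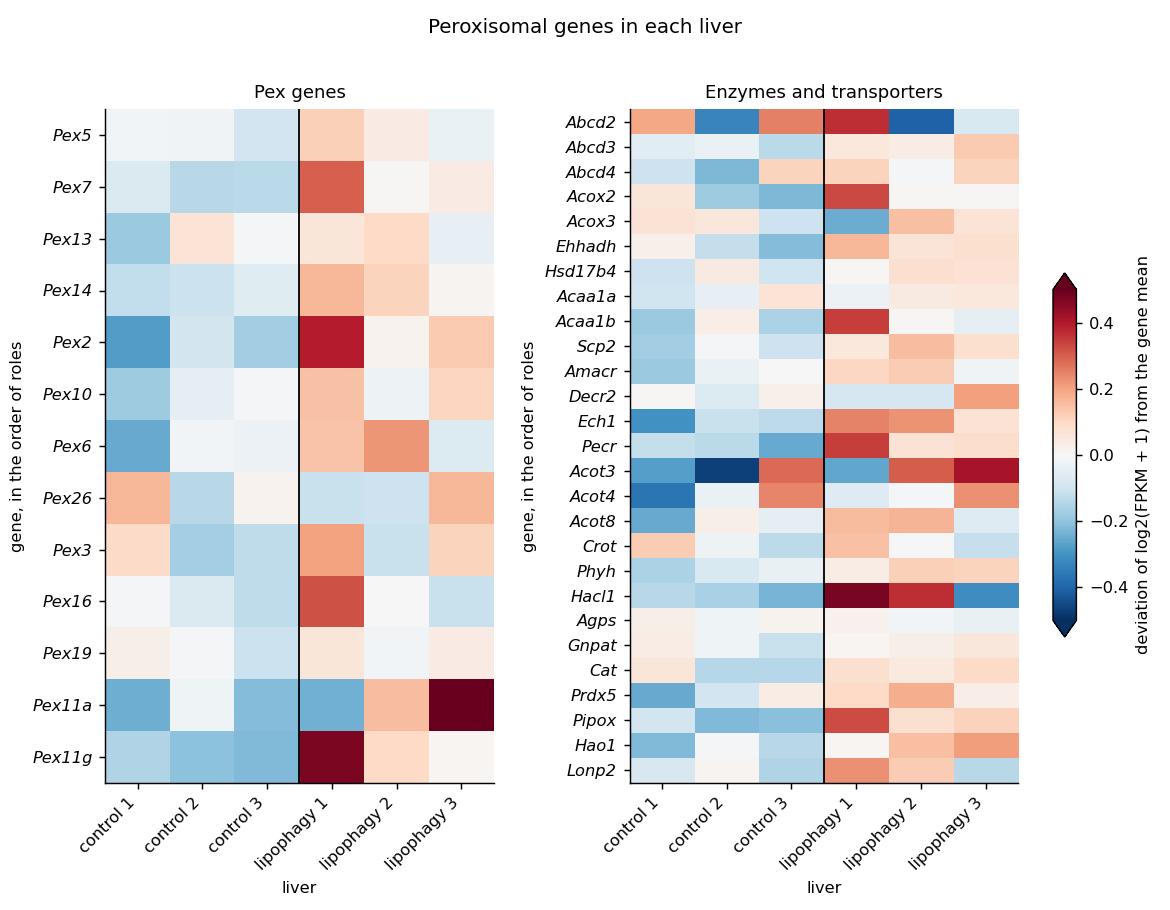
Heat map of the 40 peroxisomal genes (rows, Pex genes above enzymes) in the 6 livers (columns), coloured by the deviation of log2(FPKM + 1) from the gene's mean over all livers, with colours cut at -0.5 and 0.5. Lipophagy liver 1 holds the highest value of 20 of the rows, and control liver 1 the lowest value of 17.

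Beside this pattern stood the difference in FPKM totals. Summed over the 40 genes the level was 7242, 7496 and 7303 FPKM in control livers and 8511, 8422 and 8189 FPKM in lipophagy livers, a ratio of group means of 1.14. The FPKM total of all genes differed by a ratio of 1.14 as well. As a share of that total, the 40 genes took 1.13% ± 0.0473 in control and 1.13% ± 0.0361 in lipophagy livers (SD, n = 3). Their joint share of the summed FPKM thus differed by less than the spread between livers. Such a sum mostly reflects the most abundant genes. Of the mean sum of 7347 FPKM in control livers, Scp2, Phyh and Cat held 1726, 1352 and 1140 FPKM and all Pex genes together 321 FPKM. The Pex genes alone summed to 322, 325 and 316 FPKM against 409, 359 and 355 FPKM, a ratio of 1.17.

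The sign of 18 of the 40 differences depended on the scaling. Under all 4 other scalings that were tried, 19 genes kept a higher mean in lipophagy livers, 7 of them Pex genes (Pex2, Pex6, Pex7, Pex10, Pex11a, Pex11g and Pex14) and 12 enzyme or transporter genes (Abcd4, Acaa1b, Acot3, Acot8, Acox2, Ech1, Ehhadh, Hacl1, Hao1, Pecr, Pipox and Prdx5). Pex26, Abcd2 and Acox3 kept a lower mean. Relative to the median of all tested genes, the Pex genes were higher by 0.132 and the enzymes and transporters by 0.131 on the deposited scale, by 0.136 and 0.116 on the TPM scale, and by 0.062 and 0.000 after quantile normalization, which forces the same distribution of values on each liver.

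**Figure D3:**
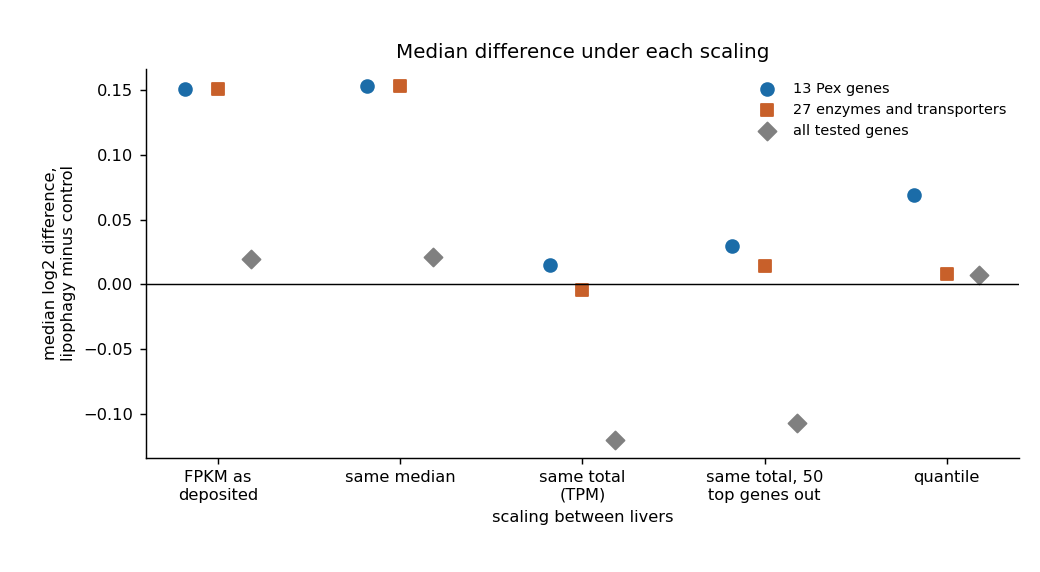
Median log2 difference between lipophagy and control livers under each scaling, for all tested genes, the 13 Pex genes and the 27 enzymes and transporters. The medians of all genes move from 0.020 on the deposited scale to -0.120 on the TPM scale, and those of the Pex genes from 0.151 to 0.015.

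Across the transcriptome the difference on the deposited scale was greater in genes of higher level. All tested genes with a mean of 0.5 to 5 FPKM had a median log2 difference of -0.060, those of 5 to 50 FPKM 0.076, those of 50 to 500 FPKM 0.172 and those over 500 FPKM 0.213. The peroxisomal genes in the same ranges had medians of 0.102 over 7 genes, 0.156 over 12, 0.208 over 17 and 0.184 over 4. A higher mean was found for 4 of the 7, 11 of the 12, all 17 and all 4 of them in these ranges, beside 34.2%, 68.1%, 83.9% and 88.0% of all tested genes. On the TPM scale the median of all tested genes turned below 0.

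**Figure D4:**
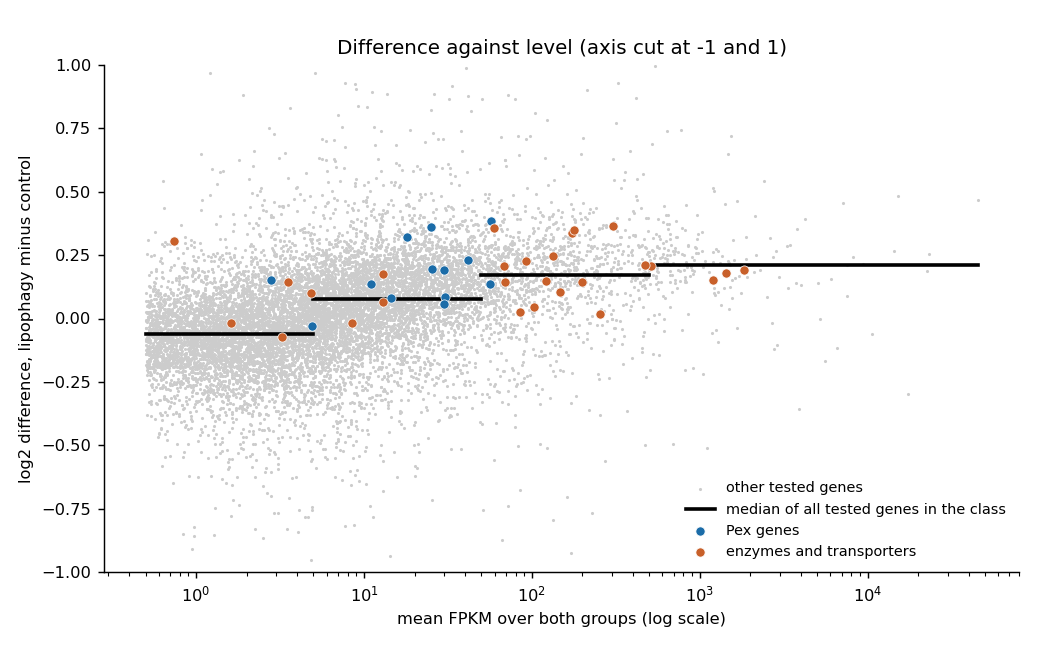
Log2 difference between lipophagy and control livers on the deposited scale (vertical axis, cut at -1 and 1) against the mean FPKM over the 6 livers (horizontal log axis), for all tested genes (grey) and the peroxisomal genes (coloured by class). The peroxisomal genes have medians of 0.208 at 50 to 500 FPKM and 0.184 over 500 FPKM, and all tested genes 0.172 and 0.213.

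Among the genes of matrix protein import, the 2 receptors and the 2 docking proteins all had a higher mean on the deposited scale (median 0.139), but Pex5 and Pex13 turned lower on the TPM scale and Pex5 after quantile normalization. Pex7, which carries proteins with the second type of targeting signal such as phytanoyl-CoA hydroxylase, was at 39.3, 37.5 and 37.5 FPKM in control livers and at 51.1, 41.6 and 42.6 FPKM in lipophagy livers. The groups did not overlap, and lipophagy liver 1 was the highest. The log2 difference was 0.23 (SE 0.095, unadjusted p = 0.0404, limma adjusted p = 0.243), and 0.14 without that liver. Pex14, the docking protein on which cargo-loaded Pex5 lands, was at 27.4, 27.7 and 28.6 FPKM against 33.6, 32.3 and 30.2 FPKM. Again the groups did not overlap, with close replicates (difference 0.19, SE 0.076, unadjusted p = 0.0342, limma adjusted p = 0.230). On the TPM scale the difference shrank to 0.053 for Pex7 and 0.015 for Pex14. Pex13, its partner in docking, was at 12.6, 15.3 and 14.5 FPKM against 15.2, 15.6 and 14.1 FPKM, and the groups overlapped. Pex5, the receptor for most matrix enzymes, was at 29.5 ± 0.954 and 31.4 ± 1.70 FPKM (mean ± SD, n = 3), and the groups overlapped.

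Pex2 and Pex10 are RING ubiquitin ligases that mark the import receptors for release, Pex6 is one of the ATPases that pull them out of the membrane, and Pex26 anchors the ATPases. Pex2 had the second largest log2 difference of the Pex genes. It was at 20.2, 23.1 and 21.8 FPKM in control livers and at 32.7, 25.04 and 27.1 FPKM in lipophagy livers, with no overlap (log2 difference 0.36, SE 0.11, unadjusted p = 0.0111, limma adjusted p = 0.171). Its difference was 0.19 on the TPM scale and 0.25 after quantile normalization. Pex6 was at 23.5 ± 2.21 and 27.1 ± 2.84 FPKM and Pex10 at 2.61 ± 0.220 and 3.01 ± 0.246 FPKM, both with overlapping groups. Pex26 was the only Pex gene with a lower mean, at 5.63, 4.37 and 4.97 FPKM in control livers and 4.47, 4.50 and 5.63 FPKM in lipophagy livers, and the ranges all but coincided.

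The 3 genes for insertion of membrane proteins showed little, and all 3 turned from a higher mean on the deposited scale to a lower one on the TPM scale. Pex16, a membrane receptor for Pex3, was at 55.7, 53.2 and 51.2 FPKM in control livers and at 70.0, 56.0 and 51.8 FPKM in lipophagy livers. Its log2 difference of 0.14 (SE 0.12) rested on lipophagy liver 1 and was 0.013 without it. Pex19, the cytosolic chaperone of membrane proteins, was at 30.7, 29.8 and 27.8 FPKM against 31.4, 29.7 and 30.9 FPKM. Pex3, the docking site of Pex19, was at 10.4 ± 1.17 and 11.5 ± 1.38 FPKM. Its difference of 0.13 was 0.067 without lipophagy liver 1, 0.22 without lipophagy liver 2 and 0.22 without control liver 1. Exons of several of the 40 genes overlap a gene on the opposite strand. Among the 9 genes with an unadjusted p below 0.05 these are Pex11g (Gm44775), Pex14 (Gm17029) and Pecr (D230017M19Rik), and among the others Pex3 (Adat2), Pex13 (Pus10), Pex16 (Large2), Pex26 (Gm44014), Acaa1a (Myd88), Acaa1b (Dlec1), Acot8 (Snx21), Prdx5 (Trmt112), Gnpat (2810004N23Rik), Acox3 (4931431C16Rik), Crot (Gm37153), Hacl1 (Btd) and both Acot3 and Acot4 (4732463B04Rik). The strand setting of the authors' quantification is not given in the sources used here, so reads of such partners may be mixed.

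Both Pex11 genes, which shape the membrane for division, had a higher mean under every scaling tried, with differences of 0.15 and 0.20 on the TPM scale. Pex11g had the largest log2 difference of the Pex genes, at 50.9, 48.9 and 48.4 FPKM in control livers and 78.7, 60.6 and 56.9 FPKM in lipophagy livers (0.38, SE 0.12, unadjusted p = 0.0131, limma adjusted p = 0.179). The lipophagy livers were more scattered than the control livers, and without lipophagy liver 1 the difference was 0.25. Pex11a, the form known as inducible by peroxisome proliferators in rodent liver, was at 14.8, 17.4 and 15.1 FPKM against 14.9, 19.8 and 26.8 FPKM. Here lipophagy liver 1 was as low as the controls and lipophagy liver 3 was the high one, and the log2 difference of 0.32 (SE 0.19) was 0.12 without lipophagy liver 3 and 0.52 without lipophagy liver 1.

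Among the transporters, Abcd3, the abundant carrier of branched and dicarboxylic acyl-CoA in the peroxisomal membrane, was at 116, 118 and 110 FPKM in control livers and at 125, 124 and 132 FPKM in lipophagy livers. The groups did not overlap (log2 difference 0.15, SE 0.076, limma adjusted p = 0.319), but the mean turned lower on the TPM scale and after quantile normalization. Abcd2, a carrier of very long chain acyl-CoA, was at 3.75, 2.30 and 3.95 FPKM against 4.37, 2.14 and 2.95 FPKM, a wide scatter in both groups. Abcd4, now known as a lysosomal transporter of cobalamin, was at 3.29 ± 0.512 and 3.72 ± 0.222 FPKM.

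The 8 genes of the beta-oxidation spiral had a median difference of 0.166 on the deposited scale, where 7 had a higher mean, and of -0.015 on the TPM scale, where 4 did. Ehhadh, the bifunctional hydratase and dehydrogenase of straight chains and a PPAR-alpha target, was at 69.4, 62.8 and 58.5 FPKM in control livers and 76.7, 71.4 and 72.2 FPKM in lipophagy livers. All lipophagy livers were above all controls, with a log2 difference of 0.21 (SE 0.087, unadjusted p = 0.0441, limma adjusted p = 0.248). That difference was 0.027 on the TPM scale and 0.067 after quantile normalization. Acox2, the oxidase of branched chains and bile acid precursors, had the largest difference of the 8 at 0.23 (SE 0.12), but its values of 95.6, 80.9 and 78.2 FPKM against 115, 92.0 and 91.9 FPKM overlapped, and the difference was 0.12 without lipophagy liver 1. Acox3, the oxidase of pristanoyl-CoA, was at 8.99, 8.87 and 7.84 FPKM against 7.001, 9.55 and 8.95 FPKM, with no difference in mean beyond the spread. Scp2, whose products are a thiolase for branched chains and a sterol carrier, was the most abundant of the 40 genes, at 1633, 1831 and 1714 FPKM against 1910, 2047 and 1945 FPKM. Its groups did not overlap (difference 0.19, SE 0.094, limma adjusted p = 0.30), and after quantile normalization its mean turned lower.

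The other genes of the spiral overlapped between the groups. Hsd17b4, the bifunctional enzyme of branched chains and bile acid precursors, was at 142 ± 8.38 and 152 ± 4.33 FPKM. Amacr, the racemase that readies branched chains for oxidation, was at 66.1 ± 4.57 and 73.1 ± 3.92 FPKM. Both were higher only on the deposited and the median scale, and the TPM scale turned them lower. The thiolases Acaa1a and Acaa1b, near-identical copies whose reads may be split between them, were at 101 ± 6.10 and 105 ± 3.26 FPKM and at 477 ± 40.3 and 554 ± 84.3 FPKM. The difference of Acaa1b was 0.21 (SE 0.12) and 0.084 without lipophagy liver 1.

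Of the 3 genes that handle double bonds, Ech1 and Pecr had a higher mean under every scaling tried, and Decr2 turned lower on the TPM scale and after quantile normalization. Ech1, a dienoyl-CoA isomerase of peroxisomes and mitochondria, had the smallest p of the 40. It was at 243, 278 and 274 FPKM in control livers and at 357, 352 and 316 FPKM in lipophagy livers, a log2 difference of 0.37 (SE 0.093, unadjusted p = 0.00438, limma adjusted p = 0.143). Every lipophagy liver was above every control, on the TPM scale too, where the difference was 0.18 (SE 0.069). Pecr, a trans-enoyl-CoA reductase, was at 158, 156 and 144 FPKM against 218, 180 and 182 FPKM, also without overlap (0.34, SE 0.099, unadjusted p = 0.00905, limma adjusted p = 0.164). Decr2, the peroxisomal dienoyl-CoA reductase, did not share this pattern, with 84.6, 80.3 and 85.8 FPKM against 79.3, 79.5 and 97.2 FPKM.

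Of the oxidases, Pipox, which oxidizes pipecolic acid and sarcosine, stood next to Ech1. It was at 166, 152 and 153 FPKM in control livers and at 222, 187 and 191 FPKM in lipophagy livers (0.35, SE 0.094, unadjusted p = 0.00607, limma adjusted p = 0.151). Hao1, the glycolate oxidase of hepatocytes, was at 113, 131 and 120 FPKM against 133, 147 and 153 FPKM (0.25, SE 0.093, unadjusted p = 0.0288, limma adjusted p = 0.219). In both genes the groups were separate, by a narrow margin of control liver 2 to lipophagy liver 1 for Hao1. Catalase (Cat), which breaks down hydrogen peroxide, was at 1140 ± 95.5 and 1263 ± 21.2 FPKM, and the peroxiredoxin Prdx5 at 437 ± 43.8 and 505 ± 26.6 FPKM, each with overlapping groups. Lonp2, the protease of the matrix, was at 188, 201 and 179 FPKM against 232, 217 and 180 FPKM. Its log2 difference of 0.14 was 0.064 without lipophagy liver 1 and up to 0.25 with another liver left out. All 5 genes of this group were higher on the deposited scale, and on the TPM scale Cat and Lonp2 were lower.

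**Figure D5:**
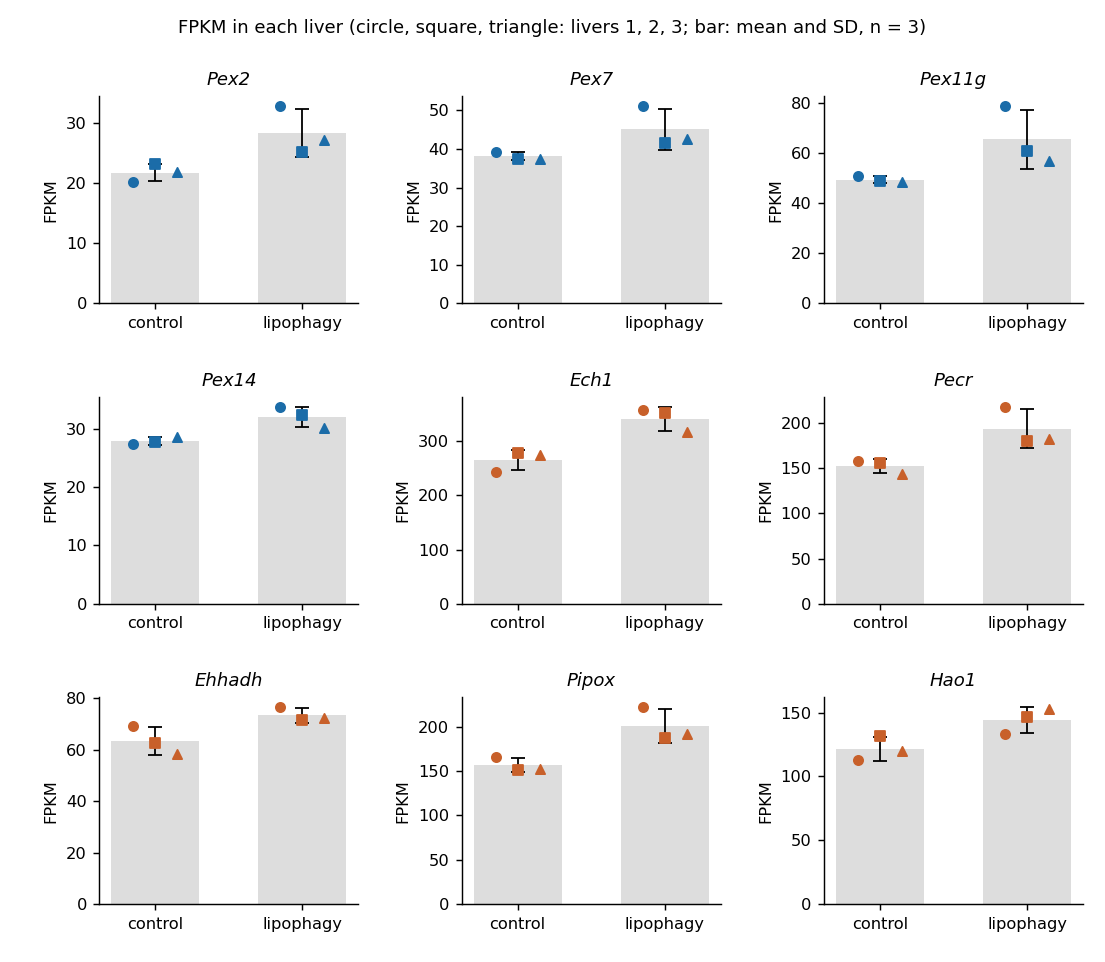
FPKM in each liver (points), with mean (bar) and SD (line, n = 3), for the 9 peroxisomal genes with an unadjusted p below 0.05 on the deposited scale: Pex2, Pex7, Pex11g, Pex14, Ech1, Pecr, Ehhadh, Pipox and Hao1. In each panel the 3 lipophagy points lie above the 3 control points, for example at 316 to 357 against 243 to 278 FPKM for Ech1. On the TPM scale Ech1 alone kept an unadjusted p below 0.05.

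Alpha-oxidation was represented by both of its first enzymes. Phyh, the hydroxylase of phytanoyl-CoA, was at 1289, 1365 and 1402 FPKM in control livers and at 1476, 1562 and 1553 FPKM in lipophagy livers, without overlap (0.18, SE 0.089, limma adjusted p = 0.301), and its mean turned lower on the TPM scale (-0.0039) and after quantile normalization. Hacl1, the lyase of the next step, was at 52.8, 52.1 and 49.5 FPKM against 81.5, 75.7 and 46.8 FPKM. Lipophagy livers 1 and 2 were well above the controls and lipophagy liver 3 below all of them, so that the log2 difference of 0.36 (SE 0.19) became 0.60 without that liver and 0.21 without lipophagy liver 1. Exons of Hacl1 also overlap Gm49387, a protein-coding model, on the same strand.

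The thioesterases and the carnitine transferase, which release or hand on the shortened chains, had 4 higher means on the deposited scale and 2 on the TPM scale. Crot, the carnitine octanoyltransferase, was at 279, 251 and 233 FPKM in control livers and at 282, 255 and 236 FPKM in lipophagy livers, in which the groups covered nearly the same range. Acot3 was near the floor, at 0.396, 0.223 and 1.06 FPKM against 0.412, 1.09 and 1.25 FPKM, which stands for an estimated 17 to 118 fragments a liver. Acot4 was at 4.68 ± 1.19 and 5.03 ± 0.662 FPKM and Acot8, a thioesterase of broad range, at 12.1 ± 1.30 and 13.8 ± 1.33 FPKM. Acot3 and Acot4 are paralogs that may share reads, and exons of both overlap the protein-coding model Gm49366 on the same strand. In ether lipid synthesis, Gnpat, the acyltransferase of the first step, was at 12.8 ± 0.722 and 13.4 ± 0.253 FPKM, and Agps, which puts in the ether bond, at 1.62 ± 0.0464 and 1.59 ± 0.0534 FPKM. Neither differed beyond the spread.

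Promoter sequence was compared between the 40 genes and all genes for the element that PPAR-alpha binds. Promoter windows from RefSeq on GRCm38.p6, mm10 in the submitters' processing notes, run from 250 bases before to 50 bases after a start site. Of the 40 genes, 34 had at least 1 window, 41 windows in all (Abcd2, Abcd4, Amacr, Hsd17b4, Pex2 and Pex19 had none). A match in any window of a gene was counted, and of several windows the first was printed. The end of the window was found in an annotated transcript of the gene for 29 of the 41, so some start sites are uncertain. The 250 bases before the start of Ech1, Pecr, Pipox and Pex11g are shown because these 4 had the smallest p of the genes with a window, and those of Cat and Acot4 because their windows hold a match to the PPAR element. They are written 5′ to 3′ on the strand of the gene, ending at the base before the start. Capitals mark a direct repeat of AGGTCA, both copies on 1 strand with any 1 base between them and at most 2 mismatches, or the GC box GGGCGG, on either strand. The windows are Ech1 on chr7:28825088-28825337 (+), Pecr on chr1:72284322-72284571 (-), Pipox on chr11:77893873-77894122 (-), Pex11g on chr8:3467649-3467898 (-), Cat on chr2:103485154-103485403 (-) and Acot4 on chr12:84038129-84038378 (+).
Ech1: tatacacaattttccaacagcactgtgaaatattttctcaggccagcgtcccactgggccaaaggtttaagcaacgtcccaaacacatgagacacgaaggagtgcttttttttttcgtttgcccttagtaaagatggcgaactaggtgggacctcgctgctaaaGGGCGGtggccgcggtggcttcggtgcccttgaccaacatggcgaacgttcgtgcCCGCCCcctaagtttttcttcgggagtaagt
Pecr: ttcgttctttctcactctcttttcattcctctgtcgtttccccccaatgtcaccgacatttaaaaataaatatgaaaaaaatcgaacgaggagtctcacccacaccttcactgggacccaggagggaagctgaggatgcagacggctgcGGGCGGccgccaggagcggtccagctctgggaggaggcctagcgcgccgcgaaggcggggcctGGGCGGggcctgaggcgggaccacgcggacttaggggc
Pipox: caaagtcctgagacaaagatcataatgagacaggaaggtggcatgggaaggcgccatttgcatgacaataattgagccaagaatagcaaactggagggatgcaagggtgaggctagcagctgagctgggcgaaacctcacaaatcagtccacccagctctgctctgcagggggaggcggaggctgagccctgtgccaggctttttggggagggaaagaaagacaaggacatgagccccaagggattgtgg
Pex11g: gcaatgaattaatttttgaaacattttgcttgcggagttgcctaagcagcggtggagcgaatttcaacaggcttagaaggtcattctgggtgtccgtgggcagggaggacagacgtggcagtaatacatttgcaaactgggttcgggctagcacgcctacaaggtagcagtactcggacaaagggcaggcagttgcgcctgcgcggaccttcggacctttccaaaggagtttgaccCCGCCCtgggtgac
Cat: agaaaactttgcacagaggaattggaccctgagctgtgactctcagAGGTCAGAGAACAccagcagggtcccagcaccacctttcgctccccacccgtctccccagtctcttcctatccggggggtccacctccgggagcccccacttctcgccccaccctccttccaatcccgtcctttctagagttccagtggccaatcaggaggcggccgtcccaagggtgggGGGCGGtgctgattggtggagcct
Acot4: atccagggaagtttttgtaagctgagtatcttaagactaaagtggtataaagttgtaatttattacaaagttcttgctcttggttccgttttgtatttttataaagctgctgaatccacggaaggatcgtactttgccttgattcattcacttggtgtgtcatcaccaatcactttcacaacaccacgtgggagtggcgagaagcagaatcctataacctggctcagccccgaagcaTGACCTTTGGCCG

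The direct repeat was found, on either strand of the 300-base windows, in 3 of the 34 genes (8.82%), beside 4.4% of all 27025 genes with a window and 3.96% of the 8819 tested ones. In Cat it reads AGGTCAGAGAACA and starts 204 bases before the start site. In Acot4 it lies on the other strand as TGACCTTTGGCCG, from 13 bases before the start site, and in Acox2 it reads AGGACAGAGGTGA from base 10 of the transcript. None of the 3 was among the 9 genes with an unadjusted p below 0.05. Ech1, Pecr, Pipox and Pex11g had no match in these windows, which says only that these letters were not there. The GC box was in 24 of the 34 genes (70.6%), beside 67.3% of the tested genes, and TATAAA in 4 (11.8%), beside 9.17%. Ech1 and Pecr each show 2 GC boxes above, Pex11g shows 1 and Pipox none.

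Other genes of the peroxisome and of fatty acid oxidation gave a setting for the 40. Of 45 further peroxisomal genes 39 were tested, and 35 of them had a higher mean on the deposited scale (median 0.183) and 21 on the TPM scale (median 0.006). At an unadjusted p below 0.05, 11 were higher and 1 lower on the deposited scale (11.5% and 7.97% of all tested genes), 1 higher and 2 lower on the TPM scale (2.05% and 21.8%), and 2 higher and 0 lower after quantile normalization (6.48% and 7.82%). Without control liver 3, 4 of the 39 were higher at that level, and 12 without lipophagy liver 3. In these 2 fits 1503 and 2552 of all 11493 tested genes were below it in either direction, beside 39 tested here. The one with the largest difference was Uox, the urate oxidase of the peroxisomal core, at 1020, 913 and 1064 FPKM in control livers and 1720, 1218 and 1342 FPKM in lipophagy livers (0.50, SE 0.14, limma adjusted p = 0.157). At the other end was Crat, the carnitine acetyltransferase, at 7.06 ± 1.61 and 5.55 ± 0.678 FPKM. Of 19 genes of mitochondrial fatty acid oxidation, 18 had a higher mean on the deposited scale (median 0.248) and 13 on the TPM scale (median 0.065). At an unadjusted p below 0.05, 12 of them were higher and 0 lower on the deposited scale, 0 higher and 1 lower on the TPM scale, and 1 higher and 1 lower after quantile normalization. The shares of all tested genes at each scaling are those given above. The 12 became 7 without control liver 2 and 7 without lipophagy liver 1, and stayed 12 without lipophagy liver 3. In these 3 fits 1597, 1464 and 2552 of all 11493 tested genes were below that level in either direction. Acat1, a thiolase, had the largest difference there (0.35, SE 0.11, limma adjusted p = 0.183), and Cpt1a, the entry enzyme for long chains, was the only one with a lower mean, at 59.4 ± 5.53 and 48.8 ± 11.4 FPKM on the deposited scale. Its log2 difference was -0.30, -0.13 without lipophagy liver 1, which was at 37.7 FPKM, and -0.46 without lipophagy liver 3, and without the latter 2 of the 19 had a lower mean. Some genes stand in more than one of these lists.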

How the data were processed

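Liver RNA of 3 control and 3 lipophagy livers was analysed from 1 table of FPKM values for 24346 gene symbols, which the authors deposited and which is scaled by transcript length and mapped fragments. Libraries were TruSeq stranded mRNA, read as pairs. The submitters' processing notes name TopHat2 2.0.13, Bowtie2 2.2.3, SAMtools 0.1.19, Cufflinks 2.2.1 and mm10. The annotation and the strand setting are not given in the sources used here. A count model does not suit such values.

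From them log2(FPKM + 1) was computed, the 11493 genes averaging 0.5 FPKM or more were kept, and lipophagy was compared with control in limma 3.58.1 in R 4.3.3, with an intensity trend, no covariate, two-sided tests and Benjamini-Hochberg adjustment over all tested genes (threshold 0.05). A fold change on this scale understates the change of low genes. The test was tried on simulated data. Depth was estimated from low values as multiples of 1 fragment, with transcript lengths of GENCODE less 175 bases, the length that gave the most whole values. Between 73.5% and 78.7% of 380 to 448 low values a liver came within 0.1 of a whole number. As the length and the step were fitted to these same values, this share is no test of the estimates, which are rough, serve as context only and enter no comparison.

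The 40 genes and the other lists were chosen with earlier results of these data known. Every one of the 40 is named. Values in each liver are given for genes whose groups did not overlap at an unadjusted p below 0.05, and for the largest rise and fall of each role of at least 3 genes. Scp2, Phyh, Hacl1 and Pex11a were added after their values were seen. Each other list is represented by its largest rise and fall. Promoters were shown for genes of these sets, except Cat and Acot4, which were chosen after their matches were seen, as were the GC box and TATAAA. Alternatives were other pseudocounts, filters and scalings, no trend, the replicate number as a block and each liver left out. Peroxisomal targeting signals in the proteins were not analysed here. Figures were drawn with matplotlib 3.10.9.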

Additional observations from a re-analysis of the deposited data

How the results depend on the processing

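With 3 livers a group, differences between peroxisomal genes of the size seen here did not pass an adjusted p of 0.05 under any of the alternatives, and Acot3, at roughly 17 to 118 fragments a liver, is uncertain. The median difference of the 40 genes, the Pex genes and the enzymes was 0.180, 0.198 and 0.179 with a pseudocount of 0.1. It was -0.00125, 0.015 and -0.004 on the TPM scale, 0.014, 0.030 and 0.014 with the total taken without the 50 most abundant genes (chosen after seeing the data), and 0.040, 0.069 and 0.00761 after quantile normalization. The number of the 40 with a higher mean at an unadjusted p below 0.05 was 1, 1 and 2 under these scalings. Of all 11493 tested genes, 2740, 2569 and 1644 were below that level there in either direction. The genes of the whole table with an adjusted p below 0.05 numbered 104 on the TPM scale, 86 without the 50 most abundant genes, 1 with no filter and 43 with the replicate number as a block, and the median of all genes was -0.120, -0.107 and, with no filter, -0.00437. With the block 9 of the 40 were again higher at an unadjusted p below 0.05. In that fit 2044 of all 11493 tested genes were below that level in either direction, and the share by direction was not computed. Ehhadh (unadjusted p in limma 0.0588) and Pex14 (0.077) were no longer among the 9, and Acox2 (0.041) and Hacl1 (0.0384) were. With the block 0 of the 40 passed the adjusted threshold. The numbers were not taken to pair the livers, because same-numbered livers deviated together with correlations of 0.25, 0.234 and -0.0565 and control liver 3 was closest to lipophagy liver 2. With the block, Cyp4a10 (1.15), Fgf21 (-0.83) and Col1a1 (-0.75) passed the adjusted threshold.

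Leaving out 1 liver at a time, the median of the 40 was 0.135 to 0.179. That of the Pex genes was 0.116 to 0.186 and that of the enzymes 0.138 to 0.178. At an unadjusted p below 0.05, 6 to 11 of the 40 were higher and 0 lower. In the same fits 1464 to 2552 of all 11493 tested genes were below that level in either direction. Both counts were highest without lipophagy liver 3. Past the adjusted threshold were 1 to 11 genes of the table (1 without control liver 3, 5 without lipophagy liver 2, 7 without control liver 2 and 11 without lipophagy liver 3). The sign changed for Pex26 (-0.12 to 0.045), Abcd2 (-0.28 to 0.11), Acox3 (-0.098 to 0.10), Acot4 (-0.054 to 0.25), Decr2 (-0.072 to 0.073) and Crot (-0.050 to 0.086), and for Apoa1 (-0.18 to 0.044), Cd3g (-0.15 to 0.21), Epas1 (-0.061 to 0.24) and Sox9 (-0.12 to 0.042).

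On the TPM scale the difference turned for Pex5 (-0.093), Pex13 (-0.091), Pex3 (-0.034), Pex16 (-0.043), Pex19 (-0.12), Abcd3 (-0.035), Hsd17b4 (-0.076), Acaa1a (-0.14), Amacr (-0.038), Decr2 (-0.16), Acot4 (-0.046), Crot (-0.16), Phyh (-0.0039), Gnpat (-0.11), Cat (-0.032), Lonp2 (-0.040), Epas1 (-0.050) and Cd3g (-0.092). Without the 50 most abundant genes it turned for Pex5 (-0.076), Pex13 (-0.074), Pex3 (-0.017), Pex16 (-0.025), Pex19 (-0.10), Abcd3 (-0.018), Hsd17b4 (-0.058), Acaa1a (-0.12), Amacr (-0.020), Decr2 (-0.14), Acot4 (-0.032), Crot (-0.15), Gnpat (-0.089), Cat (-0.014), Lonp2 (-0.023), Epas1 (-0.034) and Cd3g (-0.085). After quantile normalization it turned for Pex5 (-0.037), Pex16 (-0.00048), Pex19 (-0.058), Abcd3 (-0.029), Hsd17b4 (-0.065), Acaa1a (-0.11), Scp2 (-0.023), Amacr (-0.00092), Decr2 (-0.12), Crot (-0.16), Phyh (-0.0017), Agps (0.065), Gnpat (-0.00090), Cat (-0.000784), Lonp2 (-0.042) and Sox9 (0.023). The other pseudocounts, filters, the median scaling and the fit without trend kept the sign of each of the 40 genes they tested.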

Other observations

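Of 20 tested target genes of PPAR-alpha outside the peroxisome, 12 had a higher and 8 a lower mean on the deposited scale, 8 and 12 on the TPM scale. At an unadjusted p below 0.05, 7 were higher and 2 lower on the deposited scale (11.5% and 7.97% of all tested genes), and 5 higher and 4 lower on the TPM scale (2.05% and 21.8%). Cyp4a10, an omega-hydroxylase of fatty acids, was at 39.1, 25.02 and 28.0 FPKM in control livers and at 91.4, 57.4 and 60.4 FPKM in lipophagy livers, without overlap (log2 difference 1.15, SE 0.21, limma adjusted p = 0.112). Fgf21, a hormone of fasting, was at 3.52, 3.61 and 2.34 FPKM against 1.41, 1.58 and 0.986 FPKM, all lipophagy livers below all controls (-0.83, SE 0.15, limma adjusted p = 0.111). On the TPM scale its adjusted p in limma was 0.045 and its difference -0.96, and with the total taken without the 50 most abundant genes they were 0.047 and -0.94.

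Of 10 regulators of peroxisomal genes, 4 had a higher mean on the deposited scale and 2 on the TPM scale, with Ppargc1a, a coactivator, at 0.23 (SE 0.13) and Pparg, a nuclear receptor, at -0.23 (SE 0.14) at the ends. Ppargc1a was at 0.949, 0.861 and 1.61 FPKM in lipophagy livers, and its difference was 0.079 without lipophagy liver 3. That of Pparg was -0.10 without control liver 1 and -0.12 without lipophagy liver 3. Of 8 genes of pexophagy, the autophagic removal of peroxisomes, 5 had a higher mean on the deposited scale and 0 on the TPM scale. The 5 became 3 without lipophagy liver 3 and 6 without control liver 1. Sqstm1, the autophagy receptor p62, was at 258, 276 and 276 FPKM in control livers and at 235, 244 and 208 FPKM in lipophagy livers, without overlap (-0.24, SE 0.091, limma adjusted p = 0.219). Its difference was -0.42 on the TPM scale (limma adjusted p = 0.045) and -0.41 without the 50 most abundant genes (0.048). Epas1 had the highest difference of this list (0.12, SE 0.16), which turned to -0.050 on the TPM scale.

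In the marker lists, a higher mean on the deposited scale was found for 12 of 13 tested hepatocyte, 4 of 10 macrophage, 1 of 10 stellate cell, 7 of 8 endothelial, 0 of 5 bile duct, 1 of 4 lymphocyte, 0 of 3 neutrophil and 5 of 5 red cell genes, and on the TPM scale for 9, 1, 1, 2, 0, 0, 0 and 5 of them. The median difference of the stellate cell genes was -0.329 on the deposited scale, with 6 of them lower at an unadjusted p below 0.05 (7.97% of all tested genes) and Lrat the one with a higher mean. The highest and the lowest log2 differences were those of Tat (0.995) and Apoa1 (-0.062) for hepatocytes, Vsig4 (0.40) and Cd68 (-0.38) for macrophages, Lrat (0.25) and Col1a1 (-0.75) for stellate cells, and Clec4g (0.43) and Pecam1 (-0.11) for endothelium. They were those of Sox9 (-0.060) and Spp1 (-0.71) for bile duct, Cd3g (0.0018) and Ptprc (-0.28) for lymphocytes, Csf3r (-0.28) and S100a9 (-0.60) for neutrophils, and Hba-a2 (2.36) and Alas2 (0.26) for red cells. Without lipophagy liver 1 the difference was 0.14 for Lrat and 0.18 for Clec4g, without lipophagy liver 2 it was -0.028 for Pecam1, and without control liver 2 it was -0.16 for Csf3r and -0.37 for S100a9. Of the 8 endothelial genes, 4 instead of 7 had a higher mean without control liver 3 or without lipophagy liver 1. Col1a1 passed the adjusted threshold on the TPM scale (-0.89) and without the 50 most abundant genes (-0.88). Hba-a2, a near-identical copy of Hba-a1 with which it shares reads, was at 10.1 and 11.6 FPKM in lipophagy livers 1 and 2 and at about 0.02 FPKM in the other 4 livers, and it passed the adjusted threshold without lipophagy liver 3 (3.54).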
